A study of Homo sapiens with 6 samples.

Results

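The thioredoxin system was examined through 10 genes in HCT116 cells with and without PLEK2 knockdown: the reductases TXNRD1 and TXNRD2, the thioredoxins TXN and TXN2, the thioredoxin inhibitor TXNIP, and the peroxiredoxins PRDX1, PRDX2, PRDX3, PRDX4 and PRDX6. They were chosen by their gene symbols among the 17047 genes of the deposited table, and each symbol was found in 1 row. TXNRD1 was known to be lower with PLEK2 shRNA in these libraries when the genes were chosen, so the values of all 10 are a description. Where a count of them past a threshold is given, it stands beside the share of all genes and supports nothing.

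HCT116, a cell line established from a human colorectal carcinoma, was the only cell type. Poly(A) RNA was read from 1 end in cells with a non-targeting shRNA (shNC, 3 libraries) and in cells with PLEK2 shRNA (3 libraries). Both shRNAs are described for a pLKO.1 viral vector, so both groups carried one, and no drug treatment is given for either. The shRNA list of the study holds a single sequence against PLEK2 and the data come from 1 cell line, so a property of that sequence and an effect of PLEK2 cannot be told apart. Nothing in the sources says whether libraries of a group came from separate cultures, so a p-value here measures the spread between these libraries, which may be technical.

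The thioredoxin system passes electrons from NADPH to proteins. Thioredoxin reductase, a selenoprotein, reduces thioredoxin, and thioredoxin in turn reduces oxidised cysteines in ribonucleotide reductase, transcription factors and most peroxiredoxins, the abundant enzymes that break down hydrogen peroxide. The cytosol and the mitochondria hold separate reductases and thioredoxins, and tumour cells are known to rely on this system under oxidative stress.

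Estimated counts summed to between 14377532 and 15602732 in the 6 libraries. CPM is a gene's count over the TMM-adjusted total of its library, and the TMM factors lay between 0.984 and 1.02. PLEK2 itself stood at 86.0, 72.6 and 82.9 CPM in shNC replicates 1, 2 and 3, and at 16.02, 32.2 and 35.0 CPM in PLEK2 shRNA replicates 1, 2 and 3. Its groups did not overlap (log2 fold change -1.54, SE 0.24). By edgeR's quasi-likelihood test with Benjamini-Hochberg adjustment over 12959 genes its adjusted p was 0.684 without, and 0.00106 with, the replicate number as a block. Of 9 colorectal epithelial markers in the table, 6 had a median of at least 1 CPM (EPCAM, KRT8, KRT18, KRT19, CDH1 and CDX2). VIL1, CDH17 and LGALS4 were below it. The same level was reached by 1 of 4 fibroblast markers (COL1A1), 0 of 5 leukocyte markers and 0 of 4 endothelial markers. CDX1, the fibroblast markers DCN and LUM, and the leukocyte marker PTPRC had no row. The summed level of the epithelial markers was 7684 to 8813 CPM in shNC and 6158 to 8046 CPM in PLEK2 shRNA, so the groups overlapped.

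The short hairpin is printed to show what the knockdown could pair with among the thioredoxin genes. Its target sequence comes from the study's oligonucleotide list and matches exon 2 of 9 of PLEK2 at chr14:67397753-67397773, minus strand, of GRCh38 in GENCODE 44. The capitals mark the bases that pair with the seed of the guide strand.
PLEK2 shRNA target: gctggtgtactacAAGCTTGa
The 21 bases matched 1 gene's transcript exactly, that of PLEK2. The seed site AAGCTTG was not found in the transcript of TXNRD1, including its 1886-nt 3′ UTR, and the best ungapped alignment there matched 14 of 21 bases, where 28.9% of transcripts matched at least as many. Among the other 9 genes, the site was found once in the 3′ UTR of PRDX6 and once outside the 3′ UTR in TXN. It was present in the 3′ UTR of 1303 of 12361 genes (10.5%). These matches describe letters and say nothing of binding.

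TXNRD1, the cytosolic thioredoxin reductase, was lower in every library with PLEK2 shRNA than in every library with shNC. It was the only member of the 10 genes whose groups did not overlap, in a table where 9.19% of the 12959 genes tested had groups without overlap, 5.11% with PLEK2 shRNA lower. Since TXNRD1 was chosen with this contrast known, nothing is read from that count. The gene (NCBI gene 7296) lies at chr12:104215779-104350307 on the plus strand of GRCh38. Its transcript is shown around the codon for selenocysteine, the residue that the enzyme needs for catalysis, beside that of TXNRD2. The capitals mark the TGA that is read as selenocysteine rather than as a stop, and the sequences are the reference of GENCODE 44.
TXNRD1 selenocysteine codon: ctccaggctggctgcTGAggttaa
TXNRD2 selenocysteine codon: acggtgacaggctgcTGAgggtaa
The TXNRD1 stretch is at chr12:104348398-104348421 in exon 17 of 17, and the TGA is codon 648 of 650. In TXNRD2 it is at chr22:19877105-19877128, minus strand, in exon 17 of 18, and the TGA is codon 523 of 525. In both genes a cysteine codon precedes the TGA and a glycine codon follows it before the stop codon.

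The TXNRD1 level was 765.5, 627.3 and 535.2 CPM in shNC replicates 1, 2 and 3. With PLEK2 shRNA it was 314.7, 414.3 and 383.6 CPM in replicates 1, 2 and 3. The lowest shNC library was therefore above the highest PLEK2 shRNA library, and the groups moved apart furthest in replicate 1, which held the highest shNC level and the lowest PLEK2 shRNA level. The mean fell from 643 ± 116 CPM (SD, n = 3) to 371 ± 51.0 CPM (SD, n = 3), a change of -42.3% in the mean level, or 1.73-fold lower by the edgeR fit (log2 fold change -0.79, SE 0.14). Within the same-numbered pairs the log2 ratio of PLEK2 shRNA over shNC was -1.28, -0.60 and -0.48, with a mean of -0.79 and an SD of 0.43. The difference thus had 1 direction in 3 of 3 pairs while its size varied, and the shNC libraries themselves spanned 1.43-fold between the highest and the lowest. In these bulk libraries, fewer cells that express a gene and less RNA of it per cell cannot be told apart.

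**Figure D1:**
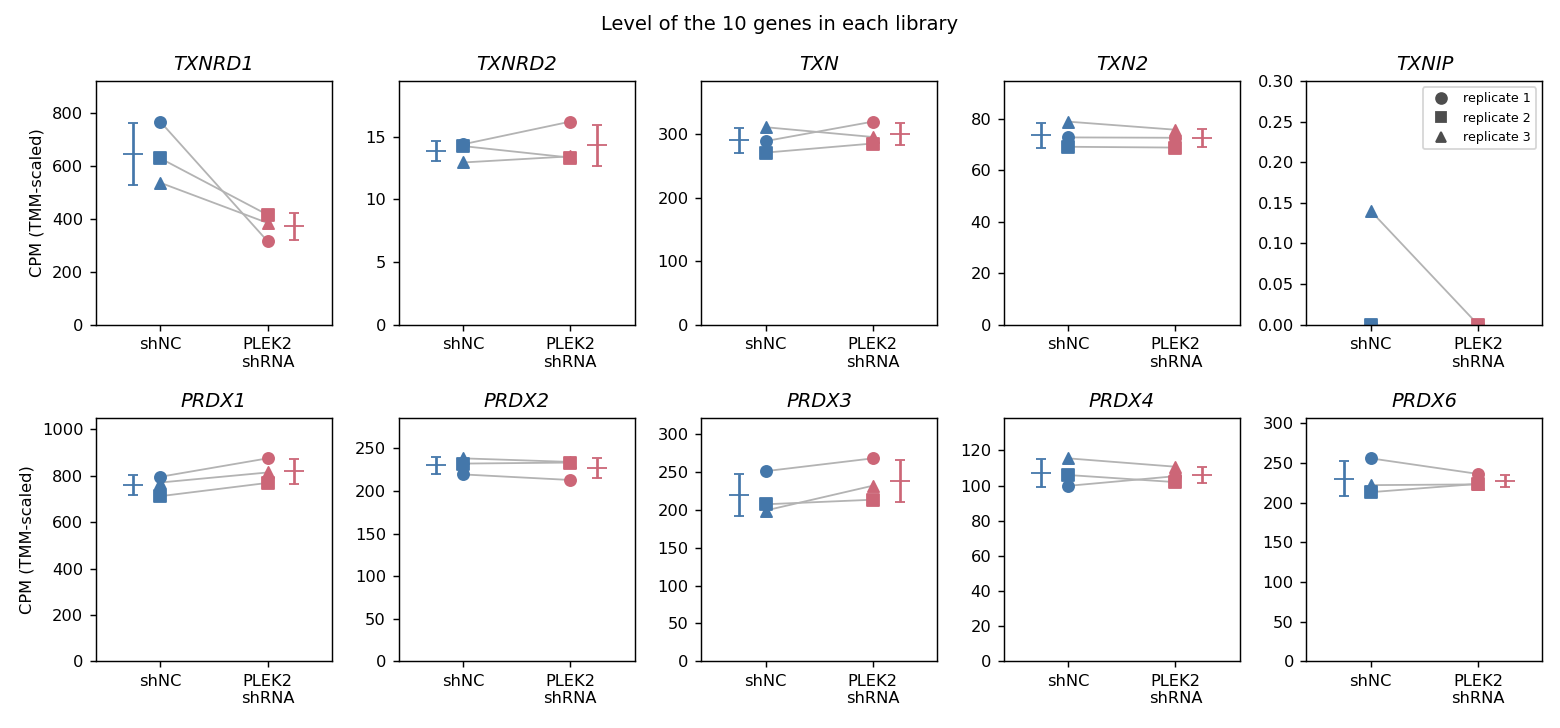
Each panel plots 1 of the 10 genes, with TMM-scaled CPM on the vertical axis, shNC libraries in blue and PLEK2 shRNA libraries in red; lines join libraries with the same replicate number and the side marks give the mean and SD of 3 libraries (none for TXNIP). TXNRD1 lies at 535.2 to 765.5 CPM in shNC and at 314.7 to 414.3 CPM in PLEK2 shRNA, the other 8 genes with tested counts overlap between the groups, and TXNIP is at or near 0.

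Among the 12959 genes tested, 33 (0.255%) had a log2 fold change as low as that of TXNRD1 or lower. TXNRD1 took 0.0753%, 0.0618% and 0.0534% of all counts in shNC replicates 1, 2 and 3, and 0.0321%, 0.0415% and 0.0387% in PLEK2 shRNA replicates 1, 2 and 3. The 10 genes together made up 0.242% to 0.272% of the shNC libraries and 0.233% to 0.247% of the PLEK2 shRNA libraries, 2 ranges that overlap.

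TXNRD1 is transcribed from several start sites into mRNAs of different length, so the length that the deposited values imply was compared between libraries. A count divided by its FPKM (a level scaled to the transcript length and the library total) gives that length. It was 3829 nt on average for TXNRD1 and lay between 3822 and 3839 nt in the 6 libraries, beside 3860 nt for the reference transcript. Each library shifts the implied lengths of all genes a little, so the median shift of each library was also removed. The highest implied length of TXNRD1 was then 0.701% above its lowest, and 55.7% of 3711 well covered genes had a larger spread by this measure.

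Sequence upstream of the TXNRD1 starts was available from RefSeq (GRCh38.p14) and is printed because the gene is a known target of NRF2, the transcription factor of the oxidative stress response, which binds antioxidant response elements. The capitals mark the core TGACNNNGC, searched on both strands of the 300 bases from 250 before to 50 after each start.
TXNRD1 first start, same strand: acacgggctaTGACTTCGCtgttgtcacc
TXNRD1 first start, opposite strand: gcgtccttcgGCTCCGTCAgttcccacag
TXNRD1 second start, opposite strand: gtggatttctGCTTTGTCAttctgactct
These stretches are at chr12:104215670-104215698, chr12:104215761-104215789 and chr12:104286920-104286948, and the cores begin at -99, -8 and -102 relative to their start. The core was present in 4687 of 35116 promoter entries (13.3%). Of the 10 genes, 7 had entries (11 in all), and no entry of the other 6 (TXNIP, TXN, PRDX3, PRDX2, TXNRD2 and PRDX4) held it. A match is a description of the window and not a binding site.

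TXNRD2, the mitochondrial thioredoxin reductase (NCBI gene 10587, chr22:19875517-19941820, minus strand), showed no such difference. Its level was 14.4, 14.26 and 12.95 CPM in shNC replicates 1, 2 and 3, and 16.2, 13.3 and 13.4 CPM with PLEK2 shRNA. The groups overlapped, with a log2 fold change of 0.05 (SE 0.13) and pair ratios of 0.17, -0.10 and 0.05 on the log2 scale. Per transcript length, TXNRD1 stood 27.1, 22.5 and 21.3 times above TXNRD2 in shNC replicates 1, 2 and 3, and 9.79, 16.2 and 14.37 times above it with PLEK2 shRNA, as ratios of FPKM. The cytosolic reductase was the more abundant mRNA in all 6 libraries, and the ratio was lower in every PLEK2 shRNA library than in any shNC library. That separation carries the TXNRD1 difference known when the genes were chosen, so nothing is read from it.

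The thioredoxins carry the pair of cysteines that takes part in each reduction, and their coding sequence is shown at that site to identify the 2 genes. The capitals mark the 2 cysteine codons around a glycine and a proline codon.
TXN active site: tggTGTgggcctTGCaaa
TXN2 active site: tggTGTggacccTGCaag
The stretch is at chr9:110251379-110251396, minus strand, in exon 2 of 5 of TXN, with the first cysteine at codon 32 of 106. In TXN2 it is at chr22:36476838-36476855, minus strand, in exon 3 of 4, with the first cysteine at codon 90 of 167.

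TXN, the cytosolic thioredoxin that TXNRD1 reduces, did not follow it. Its level was 289, 271 and 311 CPM in shNC replicates 1, 2 and 3, and 319.9, 285 and 296 CPM with PLEK2 shRNA. The groups overlapped, and the pair ratios of 0.15, 0.07 and -0.07 on the log2 scale did not share a direction (log2 fold change 0.05, SE 0.08). TXN2, the mitochondrial thioredoxin, stood at 72.7, 69.1 and 78.9 CPM in shNC and at 72.6, 68.8 and 75.7 CPM with PLEK2 shRNA, again with overlap (log2 fold change -0.02, SE 0.09). Its pair ratios were all below 0, at -0.0027, -0.0065 and -0.06, the first 2 close to 0.

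The mRNA of the reductase relative to its substrate followed TXNRD1. The ratio of TXNRD1 to TXN in FPKM was 0.499, 0.437 and 0.329 in shNC replicates 1, 2 and 3 (0.422 ± 0.086, SD), and 0.185, 0.275 and 0.245 with PLEK2 shRNA (0.235 ± 0.046, SD). No PLEK2 shRNA library reached the lowest shNC ratio. This restates the TXNRD1 difference, which was known when the genes were chosen, and nothing is read from it. The ratio of TXN to TXN2, the cytosolic to the mitochondrial thioredoxin, was 6.56 to 6.62 in shNC and 6.53 to 7.34 with PLEK2 shRNA, and these ranges overlapped. The ratio of TXNRD2 to TXN2, the mitochondrial counterpart, was 0.101 to 0.127 in shNC and 0.112 to 0.139 with PLEK2 shRNA, also with overlap. These are mRNA ratios, and protein was not part of these data.

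**Figure D2:**
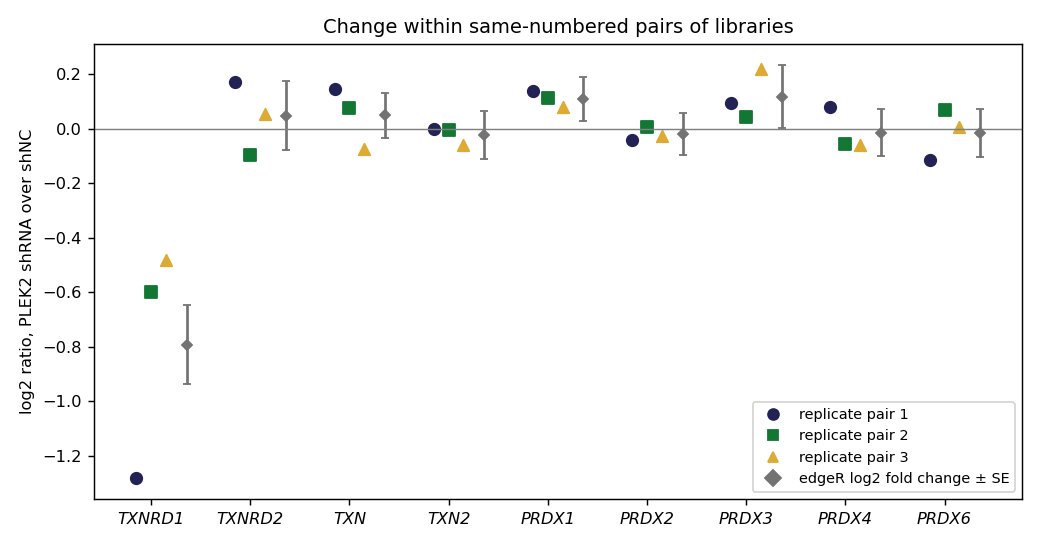
The vertical axis is the log2 ratio of PLEK2 shRNA over shNC for the 9 genes with tested counts, as coloured symbols for the 3 same-numbered pairs and a grey diamond with its standard error for the edgeR log2 fold change over all 6 libraries. TXNRD1 lies at -1.28, -0.60 and -0.48 in the pairs, while the fitted values of the other 8 genes lie between -0.02 and 0.12.

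TXNIP, which binds reduced thioredoxin and blocks it, had almost no counts in these libraries. Of the 6 libraries, only shNC replicate 3 held counts, 2 in number, and the other 5 had 0. A count of 0 allows up to 3 counts, or 0.191 to 0.212 CPM in these libraries, as counting error only. The gene (NCBI gene 10628, chr1:145992435-145996579, minus strand) was below the filter on low counts and no fold change is given. The annotation behind the counts is not stated, and its part in these values was not tested.

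The 5 peroxiredoxins are shown at the cysteine that peroxide oxidises, since this site separates them into classes. The capitals mark the codon of that peroxidatic cysteine.
PRDX1 peroxidatic cysteine: tttgtgTGCcccacggag
PRDX2 peroxidatic cysteine: tttgtgTGCcccaccgag
PRDX3 peroxidatic cysteine: tttgtgTGTcctacagaa
PRDX4 peroxidatic cysteine: tttgtgTGTccaactgaa
PRDX6 peroxidatic cysteine: ccagtgTGCaccacagag
The stretches are at chr1:45515749-45515766, chr19:12801011-12801028 and chr10:119173851-119173868 on the minus strand for PRDX1, PRDX2 and PRDX3, and at chrX:23674994-23675011 and chr1:173481363-173481380 on the plus strand for PRDX4 and PRDX6. The cysteine is codon 52 of 200, 51 of 199, 108 of 257, 124 of 272 and 47 of 225, in the same order. PRDX1 to PRDX4 are known as typical 2-Cys peroxiredoxins, in which a second, resolving cysteine forms a disulfide that thioredoxin reduces. That cysteine was found at codon 173 of PRDX1, 172 of PRDX2, 229 of PRDX3 and 245 of PRDX4, shown next with its codon in capitals.
PRDX1 resolving cysteine: gaagtgTGCccagctggc
PRDX2 resolving cysteine: gaagttTGTcccgctggc
PRDX3 resolving cysteine: gaagtcTGCccagcgaac
PRDX4 resolving cysteine: gaagtcTGCcctgctggc
PRDX6 holds no such stretch and is the 1-Cys member, which is known to be reduced by glutathione rather than by thioredoxin.

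PRDX1, a cytosolic and nuclear peroxiredoxin, was slightly higher with PLEK2 shRNA in each pair. Its level was 796, 712 and 771 CPM in shNC replicates 1, 2 and 3, and 876, 769.7 and 815 CPM with PLEK2 shRNA. The groups overlapped, since PLEK2 shRNA replicate 2 lay below shNC replicates 1 and 3, although the pair ratios were 0.14, 0.11 and 0.08 on the log2 scale. The mean was 760 ± 43.0 CPM in shNC and 820 ± 53.1 CPM with PLEK2 shRNA (SD, n = 3 each), a difference of 7.9% (log2 fold change 0.11, SE 0.08). PRDX1 (NCBI gene 5052, chr1:45510914-45542732, minus strand) shares 364 nt of exon with MMACHC on the opposite strand, and the sources do not say that strand was kept. Its counts were not whole in any library, but the sums with those of MMACHC were whole in 6 of 6 (within 0.02), so reads had been divided between the genes. MMACHC was given 263 to 343 counts and PRDX1 10093 to 13772, and how many of them came from the shared stretch was not tested.

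PRDX3, the mitochondrial peroxiredoxin (NCBI gene 10935, chr10:119167720-119178812, minus strand), was likewise higher in 3 of 3 pairs. It stood at 250.7, 207 and 199 CPM in shNC replicates 1, 2 and 3, and at 268, 213 and 232 CPM with PLEK2 shRNA, with pair ratios of 0.09, 0.04 and 0.22 on the log2 scale. The groups overlapped, and in both of them replicate 1 was the highest library (log2 fold change 0.12, SE 0.12). The log2 fold change was 0.02 without PLEK2 shRNA replicate 1 and 0.24 without shNC replicate 1. TXNRD1 and TXN2 were lower in 3 of 3 pairs and PRDX1 and PRDX3 higher in 3 of 3, where 21.1% of all genes tested were lower in every pair and 19.9% higher.

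The other 3 peroxiredoxins differed by less than the spread between libraries, and their pairs did not share a direction. PRDX2, a cytosolic member (NCBI gene 7001, chr19:12796820-12801800, minus strand), had 219.5, 232 and 238 CPM in shNC and 213, 233 and 234 CPM with PLEK2 shRNA (log2 fold change -0.02, SE 0.08). PRDX4, the member of the endoplasmic reticulum (NCBI gene 10549, chrX:23664262-23686397, plus strand), had 99.8, 106 and 115 CPM in shNC and 105, 102 and 110.7 CPM with PLEK2 shRNA (log2 fold change -0.01, SE 0.09). PRDX6 (NCBI gene 9588, chr1:173477330-173488815, plus strand) had 256, 213 and 222 CPM in shNC and 236, 224 and 223 CPM with PLEK2 shRNA (log2 fold change -0.02, SE 0.09). In each of these genes the ranges of the groups overlapped. PRDX2 shares 247 nt of exon with an unnamed gene on the opposite strand. The promoter entries of PRDX3 and PRDX4 held the E-box CACGTG, a letter pattern present in 2548 of 35116 entries (7.26%), while those of TXNIP, TXN, TXNRD1, TXNRD2 and PRDX2 did not.

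Added together, the 5 peroxiredoxins reached 1593, 1469 and 1560 FPKM in shNC replicates 1, 2 and 3, and 1751, 1558 and 1655 FPKM with PLEK2 shRNA. The means were 1541 ± 64.3 and 1655 ± 96.5 FPKM (SD, n = 3 each) and the groups overlapped. PRDX1 alone supplied 54.7% to 58.6% of the sum. PRDX5, the remaining human peroxiredoxin, was not among the 10 genes and was looked up for completeness. It had 106, 135 and 133 CPM in shNC and 102, 128 and 120.1 CPM with PLEK2 shRNA. Its groups overlapped (log2 fold change -0.10, SE 0.12, adjusted p = 0.968 by edgeR's quasi-likelihood test with Benjamini-Hochberg adjustment).

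On the FPKM scale, which allows levels of different genes to be compared, PRDX1 was the most abundant of the 10 genes with a mean of 902 FPKM over 6 libraries. TXN followed with 408 FPKM and PRDX2 with 255 FPKM, each separated from its neighbours in 6 of 6 libraries without overlap of their ranges. PRDX3 (154 FPKM), PRDX6 (149.7 FPKM), PRDX4 (137 FPKM) and TXNRD1 (132 FPKM) came next and were not separated. PRDX3 exceeded PRDX6 in 4 of 6 libraries, PRDX6 exceeded PRDX4 in 5 of 6, and PRDX4 exceeded TXNRD1 in 4 of 6. TXN2 (60.4 FPKM), TXNRD2 (7.21 FPKM) and TXNIP were lower in this order, each below the gene before it in 6 of 6 libraries. The place of TXNRD1 differed between the groups. Its mean was 166 ± 28.5 FPKM in shNC, above the means of PRDX3 (146 ± 17.97), PRDX6 (149 ± 14.1) and PRDX4 (136 ± 10.2), and 97.8 ± 12.4 FPKM with PLEK2 shRNA, below those of PRDX3 (162 ± 20.8), PRDX6 (151 ± 6.50) and PRDX4 (138 ± 6.58), all as SD with n = 3. In shNC the ranges of the 4 genes overlapped, whereas every PLEK2 shRNA library had less TXNRD1 than any of these 3 peroxiredoxins. Such a change of place again carries the TXNRD1 difference known when the genes were chosen.

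**Figure D3:**
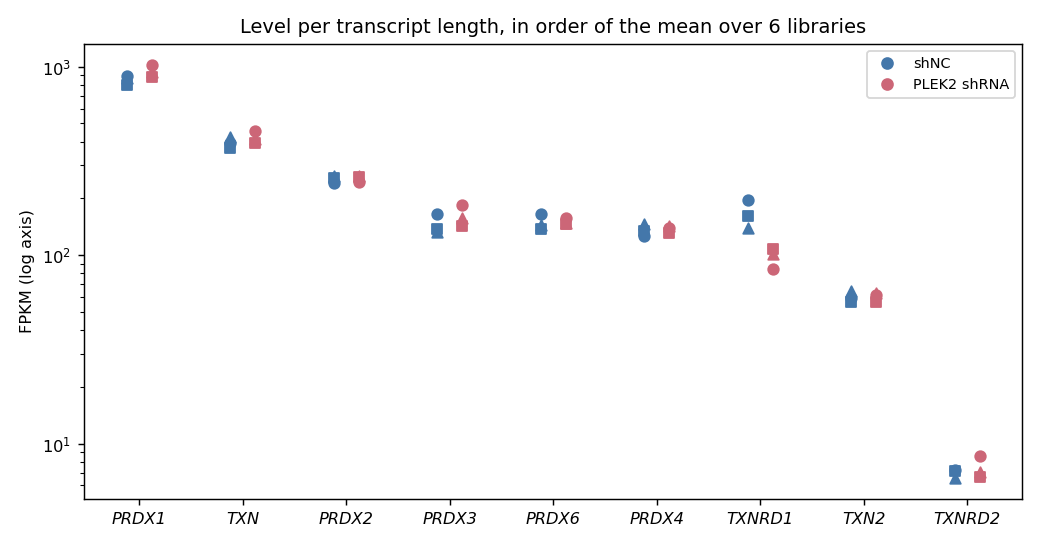
FPKM on a log axis is plotted for 9 of the 10 genes (TXNIP is left out because 5 of its 6 values are 0), with shNC libraries in blue, PLEK2 shRNA libraries in red, and circle, square and triangle for replicates 1, 2 and 3. The means over 6 libraries run from 902 FPKM for PRDX1 to 7.21 FPKM for TXNRD2, and only TXNRD1 has its colours apart.

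Counted over the 9 genes that passed the filter on low counts, 0 had an adjusted p under 0.05 by edgeR's quasi-likelihood test without the replicate block, as did 0 of all 12959 genes (0%). At an unadjusted p under 0.05 the count was 1 of 9, TXNRD1, beside 3.09% of all genes in either direction and 2.22% in the lower direction. With the replicate block it was 1 of 9 at an adjusted p under 0.05, again TXNRD1, beside 0.849% of all genes in either direction and 0.725% in the lower direction, and DESeq2's Wald test without the block called the same gene, beside 0.0926% of all genes in either direction. DESeq2's Wald test with the block called 0 of 9. The contrast was used to choose these genes, so these counts are stated beside the background and nothing is read from them. The median log2 fold change of the 9 genes was -0.0149, and that of all genes tested was -0.0021.

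The genes around the thioredoxin system were then examined in 6 lists. They covered redoxin partners and relatives, the machinery that inserts selenocysteine together with other selenoproteins, and other NRF2 targets. They also covered proteins linked to thioredoxin as substrates or otherwise, TXNIP relatives with sugar sensors, and other enzymes that remove peroxide or superoxide. Of these genes 98 were tested, each counted once. By edgeR's quasi-likelihood test with Benjamini-Hochberg adjustment, 0 had an adjusted p under 0.05 without the replicate block, beside 0% of all genes. With the block the count was also 0, beside 0.849% of all genes. DESeq2's Wald test, which called 0.0926% of all genes, and limma, which called 0, also gave 0. At such shares the counts do not set the lists apart from other genes. At an unadjusted p under 0.05, 3 were lower and 1 was higher, and the share over all genes was 2.22% lower and 0.864% higher. The groups did not overlap for 4 lower and 3 higher genes, beside 5.11% and 4.08% of all genes. Overlap takes no account of the pairs, so a gene with overlap can still share a direction in its pairs. Of all genes tested, 21.1% were lower and 19.9% higher in every pair. Their median log2 fold change was 0.03.

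Redoxin partners and relatives numbered 25 tested genes of 26, whose median log2 fold change was 0.04, in a range of -0.18 to 0.42. No gene passed the test. SESN1, a sestrin, stood at 10.7, 10.5 and 8.52 CPM in shNC and at 17.6, 11.2 and 10.7 CPM with PLEK2 shRNA. Its groups did not overlap, but by little (log2 fold change 0.42, SE 0.21, adjusted p = 0.968 by edgeR's quasi-likelihood test with Benjamini-Hochberg adjustment), and without PLEK2 shRNA replicate 1 the log2 fold change was 0.15. SESN3, NXN (nucleoredoxin) and TMX1, a thioredoxin-related membrane protein, had log2 fold changes of 0.38 (SE 0.25), -0.18 (SE 0.10) and 0.18 (SE 0.11), with overlap of the groups in each. The pairs of SESN3 did not share a direction. NXN had pair ratios of -0.27, -0.12 and -0.16, and TMX1 of 0.26, 0.15 and 0.12, on the log2 scale. With the replicate block their SEs were 0.05 and 0.06 (adjusted p = 0.112 and 0.144 by edgeR's quasi-likelihood test). Outside the rule for named genes, TXNRD3, the third thioredoxin reductase, had a log2 fold change of 0.03 (SE 0.16), and SRXN1, the sulfiredoxin that restores overoxidised peroxiredoxins, one of 0.07 (SE 0.07).

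TXNRD1 needs selenocysteine, and the 23 tested genes of 27 for its insertion and for other selenoproteins had log2 fold changes with a median of 0.03, in a range of -0.27 to 0.51. None passed the test and 1 had groups without overlap. This was TRNAU1AP, which binds the selenocysteine tRNA, at 21.3, 21.7 and 20.4 CPM in shNC and 17.7, 19.4 and 19.1 CPM with PLEK2 shRNA (log2 fold change -0.18, SE 0.10, adjusted p = 0.968 by edgeR's quasi-likelihood test with Benjamini-Hochberg adjustment). The selenoproteins SELENOT and SELENOO had log2 fold changes of 0.20 (SE 0.10) and -0.27 (SE 0.15). Their pair ratios on the log2 scale were 0.18, 0.14 and 0.28 for SELENOT, and -0.23, -0.22 and -0.36 for SELENOO. With the replicate block their SEs were 0.06 and 0.07 (adjusted p = 0.102 and 0.083 by edgeR's quasi-likelihood test). SELENOP, a selenium transport protein, had 2.003 ± 0.501 CPM in shNC and 2.744 ± 0.627 CPM with PLEK2 shRNA (SD, n = 3 each), so its log2 fold change of 0.46 (SE 0.27) rests on few counts.

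Of the other NRF2 targets, 22 of 24 were tested, whose median log2 fold change was 0.01, in a range of -0.28 to 0.99. GCLM, the modifier subunit of the enzyme that starts glutathione synthesis, stood at 52.9, 43.3 and 39.3 CPM in shNC replicates 1, 2 and 3, and at 35.6, 37.0 and 38.6 CPM with PLEK2 shRNA. Its groups did not overlap, its pair ratios of -0.57, -0.23 and -0.02 on the log2 scale were all below 0, and its log2 fold change was -0.28 (SE 0.12, adjusted p = 0.968 by edgeR's quasi-likelihood test with Benjamini-Hochberg adjustment). Without shNC replicate 1 the log2 fold change of GCLM was -0.14. AKR1B10, an aldo-keto reductase, went the other way, from 0.72, 0.35 and 0.35 CPM to 1.34, 0.79 and 0.73 CPM, at so low a level that its log2 fold change of 0.99 (SE 0.43) rests on few counts (adjusted p = 0.968 in the same test by edgeR). Both had an unadjusted p under 0.05 and neither passed the adjustment. GSR, the glutathione reductase, and ABCC2, an export pump, had log2 fold changes of 0.16 (SE 0.09) and 0.15 (SE 0.09) with overlap of the groups. Their pairs shared a direction, at 0.17, 0.17 and 0.15 for GSR and 0.22, 0.09 and 0.15 for ABCC2 on the log2 scale. With the replicate block the SE was 0.05 for each (adjusted p = 0.123 and 0.156 by edgeR's quasi-likelihood test). TALDO1, of the pentose phosphate pathway, was the third gene of the list without overlap (log2 fold change -0.11) and was named after its values were seen. NQO1, a common readout of NRF2 activity and likewise named outside the rule, had 404, 403 and 438 CPM in shNC and 433, 409 and 459 CPM with PLEK2 shRNA, with overlap of the groups.

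Proteins linked to thioredoxin, as substrates or otherwise, were represented by 14 tested genes, whose median log2 fold change was 0.06. ACTB, the cytoplasmic actin, had 3780, 3869 and 3830 CPM in shNC and 3016, 3545 and 3378 CPM with PLEK2 shRNA, without overlap (log2 fold change -0.21, SE 0.08). It had an unadjusted p under 0.05 and an adjusted p of 0.968 by edgeR's quasi-likelihood test with Benjamini-Hochberg adjustment. RRM2B, a ribonucleotide reductase subunit, had a log2 fold change of 0.32 with an SE of 0.30, and its replicate 1 libraries were the highest in both groups. Its pair ratios were 0.44, 0.17 and 0.26 on the log2 scale, and with the replicate block its log2 fold change was 0.30 (SE 0.07, adjusted p = 0.0674 by edgeR's quasi-likelihood test). Leaving out 1 library of the first pair gave -0.09 without PLEK2 shRNA replicate 1 and 0.63 without shNC replicate 1, in fits without the block. The NF-κB subunits NFKB1 and RELA had values of 0.10 (SE 0.08) and -0.10 (SE 0.10).

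Among TXNIP relatives and sugar sensors, 11 of 12 genes were tested, whose median log2 fold change was -0.02, in a range of -0.30 to 0.29. MLXIPL, the sugar-sensing factor ChREBP, stood at 29.8, 38.2 and 39.95 CPM in shNC and at 30.2, 28.3 and 29.3 CPM with PLEK2 shRNA. The pair of replicate 1 did not share the lower level of the other two, and the groups overlapped (log2 fold change -0.30, SE 0.12, adjusted p = 0.968 by edgeR's quasi-likelihood test with Benjamini-Hochberg adjustment). ARRDC4, an arrestin relative of TXNIP, was at 7.89, 10.7 and 10.04 CPM in shNC and 12.1, 12.2 and 10.8 CPM with PLEK2 shRNA, without overlap but by little (log2 fold change 0.29, SE 0.15). ARRDC1 and the glucose transporter SLC2A1 had log2 fold changes of -0.10 (SE 0.10) and -0.19 (SE 0.17), with overlap, and each came close to 0 when 1 library was left out (ARRDC1 -0.02 without shNC replicate 3, SLC2A1 -0.0076 without PLEK2 shRNA replicate 1). SLC2A1 was lower in each pair, at -0.40, -0.15 and -0.07 on the log2 scale, and ARRDC1 was not. With the replicate block SLC2A1 had -0.20 (SE 0.06, adjusted p = 0.131 by edgeR's quasi-likelihood test).

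Other enzymes that remove peroxide or superoxide gave 8 tested genes of 13, whose median log2 fold change was 0.02, in a range of -0.13 to 0.16. No gene of this list had an unadjusted p under 0.05 or groups without overlap. The glutathione peroxidases GPX1, GPX4 and GPX8 had log2 fold changes of -0.04 (SE 0.10), -0.13 (SE 0.09) and -0.10 (SE 0.12).

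Finally, the genes whose levels varied most like TXNRD1 were sought among 10230 genes with a mean log2 CPM over 3, by Pearson's r of log2 CPM over the 6 libraries. The 5 highest were GNPNAT1 (r = 0.989), DESI2 (0.985), TTLL12 (0.984), BCAR3 (0.983) and GTF2H3 (0.982), and these values describe the 6 libraries, which share depth and replicate structure. GNPNAT1, an enzyme of UDP-GlcNAc synthesis, stood at 72.8, 61.8 and 58.4 CPM in shNC and 46.6, 52.6 and 50.8 CPM with PLEK2 shRNA. DESI2 stood at 88.4, 78.6 and 65.4 CPM and at 49.8, 61.5 and 57.7 CPM. GTF2H3, a subunit of the general transcription factor TFIIH, stood at 107, 91.7 and 83.9 CPM and at 59.8, 72.5 and 75.0 CPM. As with TXNRD1, the highest shNC and the lowest PLEK2 shRNA library of each of the 5 genes was replicate 1. The genes were picked by their likeness to TXNRD1 over these libraries, so nothing is read from this shared pattern. The log2 fold changes were -0.36 (SE 0.11) for GNPNAT1, -0.46 (SE 0.13) for DESI2 and -0.45 (SE 0.12) for GTF2H3, all smaller in size than that of TXNRD1. TTLL12 and BCAR3 had log2 fold changes of -0.12 (SE 0.07) and -0.32 (SE 0.11). The likeness to TXNRD1 uses the same contrast, so no test of these 5 genes is given.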

How the data were processed

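RNA sequencing was analysed in 6 HCT116 libraries, grouped by the submitters' treatment labels. The authors deposited an estimated count per gene and library, without normalisation. They also deposited values with no stated unit, read here as FPKM because count divided by value gave a median of 0.937 times the reference transcript length over 3615 genes. The submitters' processing notes name HISAT2 2.0.4, Bowtie2 2.2.5, RSEM 1.2.12 and DESeq2 1.4.5 without their roles, and a mouse build, although the rows are human genes. The human build is not given in the sources used here.

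Counts were rounded. The filterByExpr defaults kept 12959 of 17047 genes. TMM scaling, edgeR 4.0.16's quasi-likelihood test and Benjamini-Hochberg adjustment over these genes were used. SEs are the log2 fold change over the square root of F. The alternatives used DESeq2 1.42.0 and limma 3.58.1 under R 4.3.3, and Python 3.11.15 handled the tables. Scripts were tested on simulated data. Replicate numbers were taken to pair the libraries, which the labels do not state. Over 10231 genes, deviations from group means correlated at 0.736, 0.561 and 0.562 between same-numbered libraries and at -0.628 to 0.362 otherwise. Replicates 2 and 3 also correlated across numbers, at 0.362 and 0.361, so their match by number is less clear than that of replicate 1. The labels name no shared day or batch.

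The genes and lists were chosen with earlier results of these data known. Named genes were the 10 genes, PLEK2, the 4 tested genes with the smallest unadjusted p in each of 6 lists and the 5 genes most like TXNRD1. Gene positions are those of GENCODE 44 (GRCh38), and the counts may rest on another annotation.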

Additional observations from a re-analysis of the deposited data

How the results depend on the processing

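The log2 fold change of TXNRD1 was -0.79 and stayed below 0 under 18 alternatives. It was -0.53 with the replicate block without replicate 1 in both groups, and lay between -0.93 and -0.64 in the other 17. Leaving out single libraries gave -0.90 to -0.64. PRDX1 (0.06 to 0.16), PRDX3 (0.02 to 0.24) and TXN (0.0008 to 0.12) were above 0 in 18 of 18 alternatives, with the lowest of each without PLEK2 shRNA replicate 1, whereas TXNRD2 (-0.05 to 0.13), TXN2 (-0.06 to 0.04), PRDX2 (-0.04 to 0.02), PRDX4 (-0.05 to 0.05) and PRDX6 (-0.06 to 0.08) changed sign near 0.

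The number of genes past an adjusted p of 0.05 was 0 in edgeR without the block (400 at an unadjusted p under 0.05). It was 12 with DESeq2's Wald test, 110 with the replicate block (94 lower, 16 higher), 192 with the block and library totals (109 lower, 83 higher), 57 with the block and DESeq2, and 528, 18 and 297 with the block without replicate 1, 2 and 3. Leaving out single libraries gave 0 to 1, the 1 without PLEK2 shRNA replicate 1. Genes of the 6 other lists numbered 0, and 3 with the block and library totals (HIF1A, ME1, RRM2B), 5 with the block without replicate 1 (HIF1A, MLXIPL, SELENOI, SELENOO, SELENOT) and 2 with the block without replicate 3 (GCLM, RRM2B). The cause was not tested. In edgeR with TMM scaling and all 6 libraries, the replicate block changed the calls of PLEK2 and TXNRD1 and of no named gene of the 6 lists. The 5 genes most like TXNRD1 are outside this statement, since no test of them is given. PLEK2 also passed without the block in DESeq2's Wald test (adjusted p = 5.1e-07) and, in edgeR, without PLEK2 shRNA replicate 1 (adjusted p = 0.0106). RRM2B (-0.09 to 0.63) and GPX1 (-0.12 to 0.05) changed sign among the alternatives. Of the list genes named by rule, others kept their sign but moved by over 1.5 times when 1 library was left out, in fits without the block. Without PLEK2 shRNA replicate 1, SESN1 was 0.15, NXN -0.12, TMX1 0.08, SELENOO -0.16, SELENOT 0.13, GSR 0.10, GPX4 -0.07, RELA -0.01 and SLC2A1 -0.0076. Without shNC replicate 1, GCLM was -0.14, ARRDC4 0.18, ABCC2 0.09, ARRDC1 -0.17, GPX8 -0.006 and SELENOP 0.30. Without shNC replicate 3, ARRDC1 was -0.02 and SESN3 0.23, and without PLEK2 shRNA replicate 2, NFKB1 was 0.06. ACTB, MLXIPL, TRNAU1AP and AKR1B10 moved by less in these fits. TPM gave the same order of levels. AKR1B10 had no value with at least 10 counts in every library. TXNIP had 0 to 2 counts, too few for a comparison.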
